A study of Mus musculus with 18 samples.

Results

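The comparison described here asks whether loss of the microRNA miR-205 acts differently on gene expression in the pituitary and in the skin of the mouse. It is a difference of differences, namely the effect of the miR-205 knockout in pituitary minus the effect of the same knockout in skin. The members were chosen by the labels alone and are the 12 arrays of miR-205 KO and wild-type tissue among the 18 arrays of the series, read over 18671 autosomal genes. The groups were miR-205 KO pituitary (samples 16 to 18), wild-type pituitary (samples 10 to 12), miR-205 KO skin (samples 7 to 9) and wild-type skin (samples 1 to 3), with 3 arrays each. The other 6 arrays are from lncKO mice, which the series title ties to the long noncoding RNA MIR205HG, the host transcript of miR-205, with 3 arrays each of pituitary (samples 13 to 15) and skin (samples 4 to 6). All mice are labelled C57BL/6, female and aged 5 to 6 weeks, with no treatment. How either knockout allele was made, and whether each sample is a mouse of its own, is not given in the sources used here.

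MicroRNAs guide Argonaute proteins to messages that match the seed, the stretch near the 5′ end of the mature strand, and lower the stability or translation of those messages. miR-205 is abundant in stratified epithelia such as epidermis, where it is known to sustain the expansion of skin stem cells through negative regulators of PI3K and AKT signalling. The pituitary is an endocrine gland whose anterior lobe, of epithelial origin, secretes growth hormone, prolactin and the other trophic hormones. Both mature strands are printed here because they are the products of the gene that the knockout label names. The seed, bases 2 to 8, is in capitals. The sequences are RefSeq's for GRCm38.p6, 5′ to 3′, and both lie on the minus strand of chromosome 1, at chr1:193507503-193507524 for the 5p strand and at chr1:193507467-193507488 for the 3p strand, inside the host gene Mir205hg.
mmu-miR-205-5p: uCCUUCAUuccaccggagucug
mmu-miR-205-3p: gAUUUCAGuggagugaagcuca
Neither Mir205 nor Mir205hg has a named probe set on the array, so the genotypes rest on the labels and could not be checked.

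Gene expression was read on Clariom S arrays as 1 intensity per probe set, analysed as log2 intensity. Array medians lay between 82 and 96 on the linear scale. The tissues carried their defining markers. The 9 pituitary markers averaged log2 intensities of 14.81 to 19.73 in pituitary and 3.10 to 5.14 in skin, and the 7 epidermal markers averaged 3.36 to 5.45 in pituitary and 14.00 to 19.01 in skin. Some labels go against the data. Although all samples are labelled female, the Y-linked gene Uty lay between 10.87 and 11.19 in all 9 pituitary arrays and between 2.59 and 3.70 in all 9 skin arrays, and Eif2s3y and Kdm5d separated the tissues in the same way. Tissue and sex therefore cannot be told apart in what follows, and in pituitary Eif2s3y also differed between genotypes, at 10.26 to 10.32 in miR-205 KO, 9.13 to 9.86 in lncKO and 10.58 to 10.68 in wild-type arrays. The extraction text speaks of a piece of ear, also beside the pituitary samples. Wild-type skin was less uniform than the other groups. Samples 1 and 2 were high in hair genes and sample 3 in glucocorticoid-responsive genes, and these values stand beside each result they touch.

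The effect of the knockout differed between pituitary and skin for many genes, and almost all of that difference came from the skin arrays. In limma's test of the difference, 1876 of the 18671 genes, 10.0%, passed an adjusted p of 0.05, and 4841 had an unadjusted p below that. Of these, 1184 (6.34% of genes tested) were higher in pituitary than in skin in their response to the knockout, and 692 (3.71%) were lower, with 1712 at least 2-fold different. The median over all genes was 0.08 on the log2 scale, with a median standard error of 0.34. The direction of the split depends on scaling, since 63.1% of these genes were higher as deposited, 47.6% after each array was centred on its median (851 higher and 937 lower) and 51.6% after quantile normalization (872 higher and 817 lower). Centring moved the median of all genes by -0.13.

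Taken within each tissue, the knockout changed 21 genes in pituitary (0.112% of genes tested; 7 higher, 0.0375%, and 14 lower, 0.0750%) and 4468 genes in skin (23.9%; 1832 higher, 9.81%, and 2636 lower, 14.1%). The pituitary count depended on each of the 6 pituitary arrays, and leaving any of them out brought it to between 4 and 13. The standard deviation of the log2 effects over genes was 0.29 in pituitary and 0.65 in skin. The median standard error was 0.24 in both, which the fit fixes because all groups share 1 estimate of the spread. With the variance estimated by tissue, pituitary arrays had a weight of 1.22 and skin arrays 0.82, where a lower weight means more spread. Then 41 genes (0.22%) passed in pituitary and 3464 (18.6%) in skin. The skin effect was the larger in size in 1770 of the 1876 genes, 94.4%, and 1751 of them passed in skin while 12 passed in pituitary. Among the 1184 genes with a positive difference the median effect was 0.18 in pituitary and -1.19 in skin, and among the 692 with a negative difference it was -0.16 in pituitary and 1.16 in skin. The genes were picked by that same difference, so the signs of these medians add no support. For 117 genes the difference passed and neither tissue's own effect did. Of the 4468 genes changed in skin, 39.2% passed the test of the difference, and for the others a different response in pituitary was not shown. Against the same wild-type arrays, 139 of the 18671 genes changed in lncKO pituitary and 4206 in lncKO skin, 1701 higher and 2505 lower. How much of the skin shift lies in the wild-type arrays that both knockouts share was not tested.

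**Figure D1:**
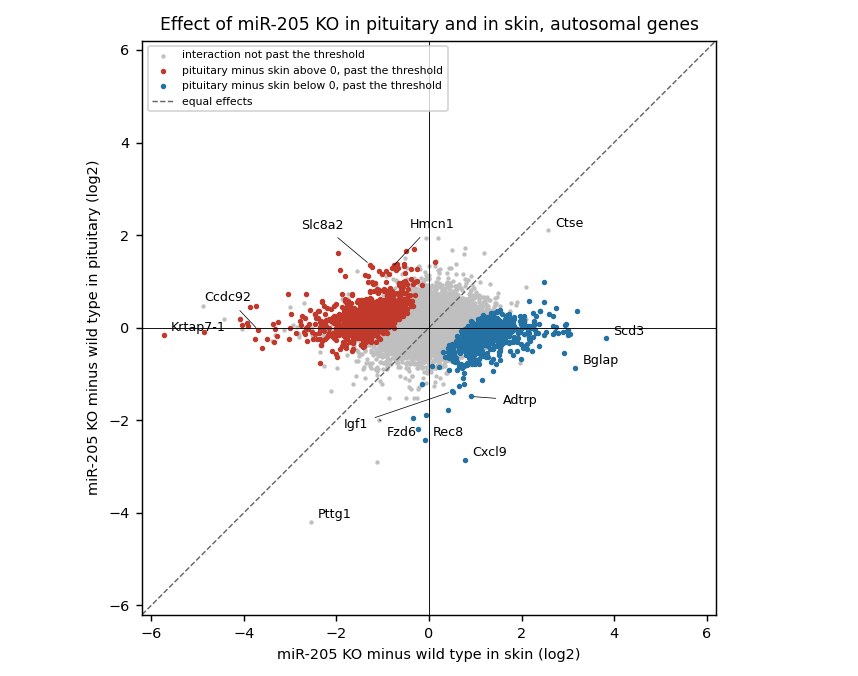
Effect of the miR-205 knockout in pituitary (vertical axis) against its effect in skin (horizontal axis), each as KO minus wild type in log2 intensity, with 1 point per autosomal gene; coloured points are the 1184 genes with a higher and the 692 with a lower response in pituitary. The coloured points spread along the horizontal axis and stay close to 0 on the vertical one, and Ctse, which rose in both tissues, lies near the dashed line of equal effects.

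Separation of the arrays was also counted. The 1876 genes were picked by a test on these same arrays, so the counts describe them and add no support. The 3 KO skin arrays lay wholly on one side of the 3 wild-type skin arrays in 1782 of the 1876 genes, against 35.1% of all genes, and the pituitary arrays were separated in 357 of them, against 10.4% of all genes. Low signals took part in these counts. In 590 of the 1876 genes both skin groups averaged a log2 intensity under 6, and in 377 all 4 groups did. With a mean of at least 6 in both tissues there remained 962 genes, 680 of them higher and 282 lower. The share of values at or below a linear intensity of 16 was 22.6% to 22.9% in KO skin and 21.7% to 22.3% in wild-type skin, and 23.7% to 24.0% in KO pituitary and 23.6% to 24.0% in wild-type pituitary. With a floor at that intensity the difference passed in 1639 genes, 955 higher and 684 lower.

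The effects had opposite signs in the tissues in 1437 of the 1876 genes, 76.6%, mostly with no call in pituitary. A test of the difference picks effects of opposite sign more readily, so this share describes the genes and adds no support. Both effects passed, with opposite signs, in 4 genes, Adtrp, Igf1, Hmcn1 and Slc8a2, and the difference passed for each of them. Adtrp, a membrane hydrolase of fatty acid esters named for its control by androgen, had log2 intensities of 7.67, 6.85 and 6.82 in miR-205 KO pituitaries, against 8.42, 8.54 and 8.85 in wild-type pituitaries. In skin it had 14.83, 14.76 and 14.83 in KO samples and 13.83, 13.82 and 14.08 in wild-type samples. All KO arrays lay below wild type in pituitary and above it in skin. The gene fell 2.80-fold in pituitary and rose 1.86-fold in skin, a difference of -2.38 ± 0.30 (SE) on the log2 scale with an adjusted p of 9.24e-05 by limma.

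Igf1 encodes insulin-like growth factor 1, the growth factor through which much of growth hormone acts and which feeds back on the pituitary. It had 9.76, 9.81 and 9.63 in KO pituitaries, against 10.92, 11.40 and 11.02 in wild-type pituitaries, and 16.79, 16.72 and 16.67 in KO skin, against 16.19, 16.27 and 16.23 in wild-type skin. The groups did not overlap in either tissue. Igf1 fell 2.60-fold in pituitary and rose 1.41-fold in skin, and the difference was -1.88 ± 0.24 (SE) with an adjusted p of 0.000111. Of the 4 opposed genes it was the one whose pituitary change kept its call under every alternative tried.

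Hmcn1 and Slc8a2 ran the other way. Hmcn1, which encodes hemicentin, a protein of the extracellular matrix, had 7.57, 7.52 and 7.00 in KO pituitaries and 6.23, 5.88 and 6.11 in wild-type pituitaries, and 5.83, 6.25 and 6.29 in KO skin and 6.82, 6.86 and 7.12 in wild-type skin. Slc8a2, a sodium-calcium exchanger of excitable cells, had 8.57, 8.59 and 8.68 in KO pituitaries and 7.61, 6.70 and 7.44 in wild-type pituitaries, and 3.32, 3.70 and 3.17 in KO skin and 4.46, 4.46 and 5.09 in wild-type skin, so its skin values were near the low end of the array. In both genes KO arrays were above wild type in pituitary and below it in skin, with no overlap. The differences were 2.10 ± 0.28 for Hmcn1 and 2.63 ± 0.36 for Slc8a2 (SE), with adjusted p of 0.000157 and 0.000203. The pituitary call of Slc8a2 was lost with a floor at an intensity of 16 (adjusted p = 0.0518), in the fit of only the 12 arrays (0.0741) and without pituitary samples 11, 12, 16, 17 or 18, that of Hmcn1 without samples 11, 12, 16 or 17, and that of Adtrp without sample 12 (0.0517).

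**Figure D2:**
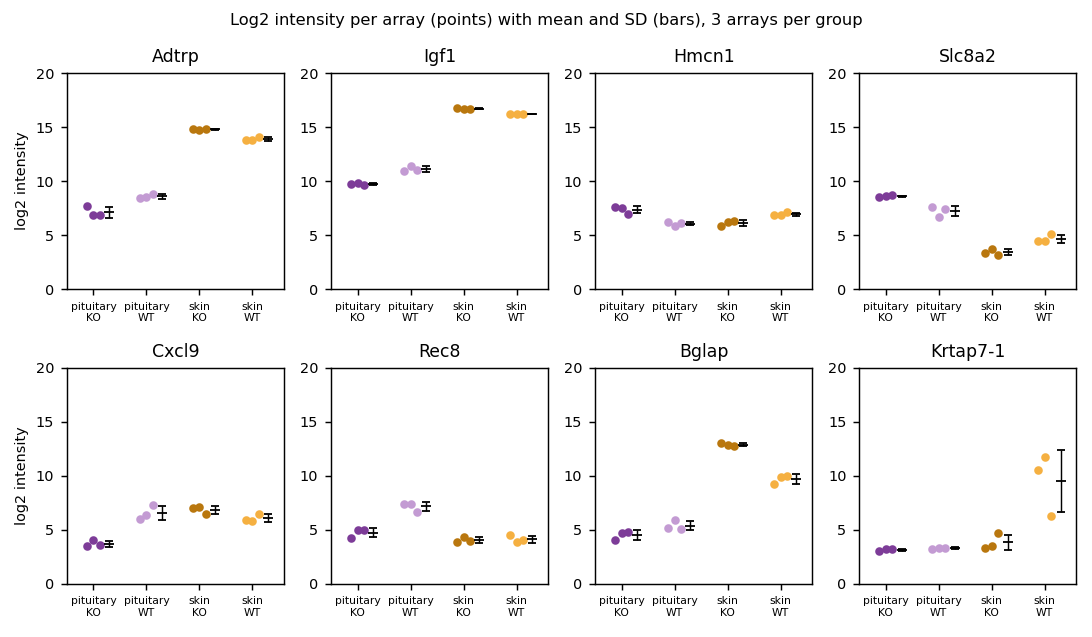
Log2 intensity of 8 genes in miR-205 KO pituitary, wild-type pituitary, miR-205 KO skin and wild-type skin, with 1 point per array and the mean and SD of 3 arrays beside the points. Adtrp and Igf1 are lower in KO pituitary and higher in KO skin, Hmcn1 and Slc8a2 the reverse, Cxcl9 and Rec8 are lower in KO pituitary, and Krtap7-1 in wild-type skin runs from 6.30 to 11.76.

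The pituitary effect was the larger in size in 106 of the 1876 genes. Among the 1876, 8 genes passed in pituitary and not in skin. The most marked was Cxcl9, an interferon-induced chemokine that attracts T cells. It had 3.46, 4.00 and 3.58 in KO pituitaries, against 5.95, 6.38 and 7.27 in wild-type pituitaries, a 7.21-fold fall. KO skin had 6.97, 7.13 and 6.41 and wild-type skin 5.88, 5.78 and 6.48, which overlapped, and the difference was -3.64 ± 0.43 (SE, adjusted p = 7.02e-05). Rec8, a meiotic subunit of cohesin, had 4.25, 4.95 and 4.95 in KO pituitaries and 7.37, 7.38 and 6.67 in wild-type pituitaries, a 5.36-fold fall, while skin lay between 3.81 and 4.46 in all 6 arrays. Its difference was -2.35 ± 0.35 with an adjusted p of 0.000478. Both pituitary calls held under every alternative.

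The other 6 genes changed less or less stably in pituitary. Klk1, a tissue kallikrein, fell 3.70-fold in pituitary and its difference was -1.81 (adjusted p = 0.0117, and 0.132 with sample 3 as the lone skin wild type). Baalc fell 4.54-fold, with a difference of -1.95 (0.0164), and the mitotic genes Kif20a, a kinesin of cytokinesis, and Cdca3 fell 2.63-fold and 3.85-fold, with differences of -1.92 (0.00335) and -1.59 (0.0377). C1ql2, a secreted synaptic protein, and Cabp7, a calcium-binding protein, rose 2.58-fold and 2.69-fold, with differences of 1.92 (0.00106) and 1.29 (0.0245). These 6 genes were picked by a test on the same arrays. In all of them the 3 KO arrays were separated from the 3 wild-type arrays in pituitary, as in 10.4% of all genes. Each of the 6 lost its pituitary call in at least 4 of the alternatives, mostly when 1 pituitary array was left out. The difference itself lost its call in 11 alternatives for Cdca3 and in 5 for Cabp7. A further 5 genes passed in pituitary and neither in skin nor in the difference. These were the mitotic genes Prc1 (difference -0.93, adjusted p = 0.0738) and Nek2 (-1.25, 0.0579), the calcium channel subunit gene Cacna2d4 (-0.85, 0.108), Uxs1, an enzyme of UDP-xylose synthesis (0.85, 0.0909), and Colgalt2, a collagen galactosyltransferase (0.84, 0.223). Their pituitary calls were lost in 5 alternatives for Prc1 and Uxs1, 7 for Nek2 and Cacna2d4 and 8 for Colgalt2, each time including pituitary samples 11 and 12 left out singly, and with the floor the pituitary effect of Prc1 was -0.67 (adjusted p = 0.484). The difference of Nek2 passed in 5 alternatives, at -1.83 with sample 3 as the lone skin wild type (0.026).

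In 4 genes the knockout had passed in both tissues in the same direction, and none of these passed in the test of the difference as reported. Fzd6, a Wnt receptor that orients hair follicles, had 8.56, 8.46 and 8.02 in KO pituitaries and 10.43, 10.33 and 10.26 in wild-type pituitaries, and 10.41, 10.14 and 9.96 in KO skin and 11.29, 11.17 and 11.27 in wild-type skin. It fell 3.98-fold and 2.10-fold, with a difference of -0.92 ± 0.30 (SE) that missed the threshold (adjusted p = 0.0595). The difference of Fzd6 passed after quantile normalization (-1.18, 0.0219), after median centring (-1.05, 0.0428) and with either filter on low values (0.0467 and 0.0446). Tnr, which encodes the neural matrix protein tenascin-R, fell 2.23-fold in pituitary and 2.08-fold in skin, where it was near background, and its difference was -0.10 ± 0.29. Ctse, the aspartic protease cathepsin E, rose 4.29-fold and 5.98-fold, with a difference of -0.48 ± 0.52, and its pituitary values reached no higher than 5.32. With the floor the pituitary effect of Ctse was 0.97 (adjusted p = 0.738), and its call was also lost in the fit of the 12 arrays (0.0741) and without any 1 of the 6 pituitary arrays. The pituitary call of Tnr was lost in the fit of the 12 arrays (0.0741) and without pituitary sample 10, 11, 12, 16 or 18.

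Pttg1, or securin, the inhibitor of sister chromatid separation that was first found in a pituitary tumour, varied most within its KO groups. It had 9.42, 4.91 and 5.13 in KO pituitaries, against 10.64, 10.76 and 10.66 in wild-type pituitaries, and 8.88, 9.61 and 6.94 in KO skin, against 10.68, 11.02 and 11.41 in wild-type skin. Every KO array was below every wild-type array of its tissue, though by unequal amounts. The difference was -1.64 ± 1.10 (SE, adjusted p = 0.367), and it passed without KO pituitary sample 16, at -3.11 (0.00682), whereas it was -0.85 without KO pituitary sample 17 and -0.96 without sample 18. The pituitary call of Pttg1 was lost in 8 alternatives, the fit of only the 12 arrays among them (adjusted p = 0.172).

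Chromosome 1, which carries the miR-205 locus, held 7 of the 21 genes changed in pituitary, 33.3%, and 5.81% of all genes tested. These were Hmcn1, C1ql2, Ctse, Tnr, Uxs1, Colgalt2 and Nek2. Among the genes changed in skin its share was 6.45%, and among those whose effect differed between tissues 6.18%. The chromosome was looked at after the values were seen, and the share was not tested.

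Cell division genes had the lowest pituitary median of the 42 gene lists examined. Of 27 measured genes of cell cycle and mitosis, 25 had a negative pituitary effect and the median was -0.61 in pituitary and -0.07 in skin, against 0.01 and -0.07 over all genes. The mean log2 intensity of the list was 5.50 to 5.80 in KO pituitaries and 6.13 to 6.46 in wild-type pituitaries, without overlap, and 7.56 to 7.92 in KO skin and 7.37 to 8.31 in wild-type skin. In the test of the difference 6 members were lower and 1 was higher, 25.9% called against 10.0% of all genes. Among them were Kif20a, Cenpe, the kinetochore motor, at -1.90 ± 0.44 (SE, adjusted p = 0.0102), and in the other direction Mcm2, a subunit of the replicative helicase, at 1.45 ± 0.37 (0.0169). Mcm2 fell in skin by 1.81 and its pituitary effect was -0.36, and its difference was not called with sample 3 as the lone skin wild type (adjusted p = 0.102). Only Kif20a of this list passed in pituitary on its own. The count of lower members was 9 without wild-type skin sample 1 and 3 without wild-type skin sample 2, KO skin sample 7 or KO pituitary sample 17.

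The largest positive differences belonged to genes of the hair shaft, and here the pituitary contributed next to nothing. Of the 10 genes with the highest difference named by rule, 6 were genes of keratin-associated proteins, the matrix in which hair keratins are embedded. Krtap7-1 had 3.00, 3.17 and 3.17 in KO pituitaries and 3.17, 3.32 and 3.32 in wild-type pituitaries, and 3.32, 3.46 and 4.64 in KO skin and 10.55, 11.76 and 6.30 in wild-type skin. Pituitary was at background in all 6 arrays, and in skin the wild-type samples 1 and 2 were far above sample 3. The difference was 5.57 ± 1.22 (SE, adjusted p = 0.00757). Krtap11-1, Krtap8-1, Krtap6-2, Krtap19-9b, Gm11567 and Krtap5-2 ranged from 3.94 to 4.31, and Gm4559, a predicted gene like Gm11567, reached 4.77.

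Samples 1 and 2 of wild-type skin were higher in this list than sample 3. Over the 24 measured genes of hair shaft and root sheath, 6 were higher and 0 lower in the test of the difference, 25.0% called against 10.0% of all genes. The median difference was 1.62 against 0.08 over all genes. Their median effect was -0.04 in pituitary and -1.76 in skin, where 20 fell, 83.3% called against 23.9% of all genes. The list's mean log2 intensity was 4.59 to 4.87 in KO skin, against 7.09, 7.81 and 5.10 in wild-type skin samples 1, 2 and 3. With sample 3 as the lone skin wild type, which is then assumed to vary like the other groups, 3 of the 24 passed and the list's median was 0.24. Krtap7-1 was then at 2.34 (adjusted p = 0.0768), Krtap8-1 at 1.77 (0.0743), Krtap6-2 at 1.26 (0.221), Gm11567 at 1.92 (0.113) and Krtap19-9b, whose call was lost in 13 alternatives, at 0.72, whereas Gm4559 (3.22), Krtap11-1 (2.32, adjusted p = 0.00178) and Krtap5-2 (2.56, 0.0484) kept their calls. Krtap6-2 also lost its call with the floor (0.0965) and with a variance trend and robust estimation (0.0532). Without sample 3, 20 of the 24 passed. Krtap3-2 and Krtap3-3 gave identical values on all 18 arrays and cannot be told apart. Tchh, or trichohyalin of the inner root sheath, had a difference of 3.23 that missed the threshold (adjusted p = 0.0929) and passed without sample 3 (4.92, 2.82e-05).

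Chrna4 and Ccdc92 were the other genes among the 10 highest and did not rest on particular arrays. Chrna4, a subunit of neuronal nicotinic acetylcholine receptors, had 8.65, 9.08 and 8.50 in KO pituitaries and 8.07, 7.95 and 8.05 in wild-type pituitaries, and 3.91, 4.00 and 4.39 in KO skin and 7.23, 6.92 and 7.30 in wild-type skin. It fell 8.29-fold in skin, and its difference of 3.77 ± 0.29 (SE) had the smallest adjusted p of all genes, 5.51e-07. Ccdc92 had 11.82, 11.77 and 11.97 in KO pituitaries and 12.07, 11.80 and 11.87 in wild-type pituitaries, which overlapped, and 5.64, 4.95 and 5.00 in KO skin and 8.96, 8.56 and 9.14 in wild-type skin. It fell 12.9-fold in skin, for a difference of 3.63 ± 0.33 (adjusted p = 3.11e-06).

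Called genes known for endocrine and neural cells ran in both directions. Pitx1, a homeobox factor of the developing pituitary and hindlimb, had a difference of 2.62 and a skin effect of -2.41, with 3.58, 3.17 and 3.32 in KO skin and 5.43, 6.04 and 5.83 in wild-type skin. Oxt, the oxytocin gene, differed by 2.68, Nr5a1, the gonadotroph and steroidogenic factor, by 2.44, the stem cell factor Sox2 by 1.73, and Cplx1, a complexin of vesicle release, by 3.38. Ptprn, a protein of secretory granule membranes, differed by 1.28 and Pcsk1, a prohormone convertase, by 1.55. In the other direction were Gfra2, a receptor of the GDNF family (-1.66, adjusted p = 0.044), Inhbb, the inhibin beta B subunit (-0.95, 0.046), Tshb and Dio2, where the calls of Gfra2 and Inhbb were each lost in 12 alternatives. The adjusted p of the 7 higher genes lay between 6.5e-05 and 0.00449. None of these 7 passed in pituitary on its own, so their differences are not responses shown in pituitary. With a floor at an intensity of 16 the call of Pcsk1 was lost (adjusted p = 0.098). By list, 4 of 12 genes of hormone granules and processing were higher and 1 lower (2 and 2 with the floor), which is 41.7% called against 10.0% of all genes. Their median effect was 0.04 in pituitary. In skin 3 of the 12 rose and 5 fell, 66.7% called against 23.9% of all genes, at list means of 5.63 to 5.79 in KO and 5.84 to 6.01 in wild-type arrays. No member of this list or of the pituitary lists that follow passed in pituitary, where 0.112% of all genes did. In the posterior lobe, gonadotroph and exocytosis lists, which hold Oxt, Nr5a1 and Cplx1, the highest pituitary effects were 0.62, 1.11 and 1.03. The lowest skin effects were -2.59, -1.33 and -2.65 in the same order. For regulated exocytosis 2 of 17 genes were higher in the difference and 0 lower, 11.8% and near the 10.0% of all genes. Of 10 gonadotroph genes 2 were higher and 1 lower (30.0%), of 8 corticotroph and melanotroph genes 3 and 0 (37.5%), of 7 thyrotroph genes 1 and 2 (42.9%), of 14 stem and folliculostellate genes 2 and 1 (21.4%), of 9 somatotroph genes 1 and 0 (11.1%), and of 11 posterior lobe genes 1 and 0 (9.09%). Of 6 lactotroph genes 0 passed and 1 had an unadjusted p under 0.05. The corticotroph and melanotroph count was 1 without pituitary sample 11 or 16, the stem count was 1 without KO skin sample 9 or pituitary sample 12, 16 or 17, and the exocytosis count was 1 without KO skin sample 8 or pituitary sample 11, 12, 16, 17 or 18. The somatotroph count was 2 without any 1 of the wild-type skin arrays and 0 without KO skin sample 7 or 8 or pituitary sample 11, 12, 16, 17 or 18, and 1 lactotroph gene passed without wild-type skin sample 3.

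Of the 7 anterior pituitary hormone genes Gh, Prl, Pomc, Tshb, Lhb, Fshb and Cga, 0 passed limma's test in pituitary and 1, Tshb, had an unadjusted p under 0.05. Apart from Tshb, their pituitary effects ran from -0.38 for Pomc to 0.25 for Lhb. Gh, the growth hormone gene, had 19.70, 19.69 and 19.67 in KO pituitaries and 19.77, 19.69 and 19.70 in wild-type pituitaries. In skin it had 3.91, 3.17 and 3.17 in KO samples and 11.29, 4.86 and 6.25 in wild-type samples, where sample 1 stood far above the rest. Its difference was 4.02 ± 1.28 (SE) and missed the threshold (adjusted p = 0.0517). It passed with the variance estimated by tissue (adjusted p = 0.035) and with either filter on low values (0.0464 and 0.0432). The difference also passed without wild-type skin sample 1, at 2.10 (0.00373), without sample 2, at 5.32 (0.00461), and without sample 3, at 4.62 (0.0333). With sample 3 as the lone skin wild type the difference was 2.80. The highest adjusted p over the alternatives was 0.205, with the floor. These pituitary values lay near the top of the scale of the arrays, on which the highest intensity was 1243875. Prl (1.48, adjusted p = 0.087, and 0.0152 without wild-type skin sample 3), Pomc (-0.37, 0.552), Lhb (0.66, 0.359), Fshb (0.84, 0.184), Cga (0.56, 0.397) and the receptor gene Ghrhr (0.14, 0.866) did not pass. Without wild-type skin sample 1 the difference was 0.78 for Prl and 0.08 for Cga. It was 1.96 for Prl without wild-type skin sample 3 and 0.86 for Cga without sample 2.

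Tshb, the thyrotropin subunit, passed in the difference. It had 16.07, 16.37 and 15.98 in KO pituitaries, against 16.78, 16.84 and 16.99 in wild-type pituitaries, so the groups did not overlap, but the pituitary effect of -0.73 ± 0.23 (SE) missed the threshold (adjusted p = 0.514). In skin, at the level of background, it had 5.98, 5.32 and 5.46 in KO samples and 4.58, 4.00 and 4.17 in wild-type samples. The difference of -2.07 ± 0.32 (adjusted p = 0.000663) combined this with a skin effect of 1.33 in values near background. Dio2, the deiodinase that activates thyroid hormone, went the same way, with an effect of -0.64 in pituitary and 0.86 in skin and a difference of -1.50 (adjusted p = 0.00291).

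Of the 10 genes with the lowest difference named by rule, 3 were genes of cartilage and bone (Bglap, Acan and Col9a3) and 1 of muscle (Tcap), and the others included Scd3, Cxcl9, Krt77 and Krt8. Bglap, or osteocalcin, made by osteoblasts, had 4.00, 4.70 and 4.81 in KO pituitaries and 5.17, 5.86 and 5.09 in wild-type pituitaries, and 13.00, 12.87 and 12.70 in KO skin and 9.20, 9.91 and 9.99 in wild-type skin. Skin groups were far apart, an 8.92-fold rise, while pituitary values were all low. The difference was -4.03 ± 0.37 (SE, adjusted p = 3.31e-06). Acan, the cartilage proteoglycan aggrecan, differed by -3.17 (0.00037) and Col9a3, a chain of cartilage collagen, by -3.47 (0.000444). Scd3, which encodes a desaturase of sebum lipids, had the lowest difference of the named genes at -4.05 ± 0.87 (0.00675), with 15.91, 13.09 and 15.64 in KO skin and 10.42, 12.51 and 10.25 in wild-type skin.

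By list, 8 of 19 measured genes of cartilage matrix and bone were lower in the difference and 0 higher, with a median of -1.54. That is 42.1% called against 10.0% of all genes. The medians were -0.14 in pituitary and 1.14 in skin, where 13 rose and 0 fell, 68.4% called against 23.9% of all genes. The list's mean log2 intensity was 5.01 to 5.07 in KO and 5.10 to 5.40 in wild-type pituitary, and 10.2 to 10.4 in KO and 8.67 to 9.35 in wild-type skin. Of 13 adipocyte genes 6 were lower and 0 higher (46.2% called), with a median of -1.46. Among them were the leptin gene Lep (-2.34), Plin4 of the lipid droplet surface (-2.04) and Pparg, the regulator of fat cell differentiation (-1.72). Of 19 skeletal muscle genes 7 were lower and 0 higher (36.8% called), with a median of -0.62. They included Tcap (-3.06) and Mb (-2.47), which encode a sarcomere cap protein and myoglobin. The muscle count was 4 without wild-type skin sample 1, KO skin sample 7 or 9 or wild-type pituitary sample 10, and 3 with the floor. In these 3 lists no member passed in pituitary, where 0.112% of all genes did. Since a bulk sample cannot separate fewer cells of a type from less RNA per cell, a shift of such a list says nothing on which of these differed. Whether the ear pieces held different amounts of cartilage, fat and muscle was not tested.

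**Figure D3:**
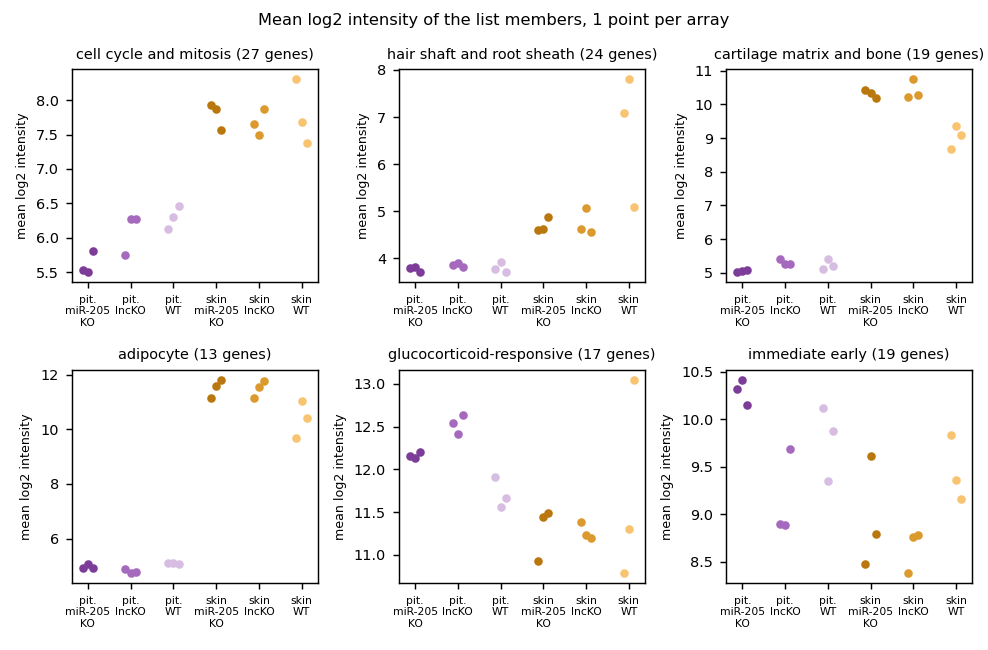
Mean log2 intensity over the members of 6 gene lists, with 1 point per array, for miR-205 KO, lncKO and wild-type arrays of pituitary (left 3 columns) and of skin (right 3 columns). Wild-type skin is scattered for hair genes (5.10 to 7.81) and for glucocorticoid-responsive genes (10.8 to 13.1), and the cell cycle mean is lower in miR-205 KO pituitary than in wild-type pituitary.

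Dermal and epidermal genes split in both directions. Among 18 genes of fibroblasts and collagen, 5 were lower and 3 higher in the difference, 44.4% called against 10.0% of all genes. Dpt, which encodes the dermal matrix protein dermatopontin, had 17.95, 17.83 and 17.84 in KO skin and 15.93, 15.79 and 15.45 in wild-type skin and differed by -2.35 ± 0.27 (SE, adjusted p = 4.49e-05). Postn, or periostin, differed by -1.99, and the matrix glycoprotein Thbs2 by 1.51, with no call for Thbs2 when sample 3 was the lone skin wild type (0.99, adjusted p = 0.112). Of 13 basal keratinocyte genes 1 passed, 7.69% and near the 10.0% of all genes. This was Itga3, an integrin subunit of the epidermal basement membrane, at 2.14 ± 0.29 (adjusted p = 0.000182). It had 7.57, 8.09 and 7.91 in KO skin and 9.16, 9.81 and 9.72 in wild-type skin, and 11.55, 11.40 and 11.33 in KO pituitary and 11.07, 11.02 and 10.89 in wild-type pituitary.

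Of 26 genes of the differentiated epidermis, 4 were higher and 2 lower, 23.1% called against 10.0% of all genes. Spink5, a protease inhibitor, differed by -1.81 and Klk7, a protease of the cornified layer, by 1.52, with KO skin at 14.55 to 14.74 and wild-type skin at 16.14 to 16.31 for Klk7. The keratin genes Krt5 (-0.16, adjusted p = 0.786), Krt14 (0.17, 0.755) and Krt10 (-1.15, 0.0707) did not pass, nor did the hair follicle factor Lef1 (0.72, 0.234). Krt10 passed after median centring (0.0428), with a variance trend and robust estimation (0.046), and without pituitary sample 11 (0.0221) or 18 (0.0337). The keratin genes Krt77 and Krt8 did pass, at -2.99 and -2.92. Krt8, a keratin of simple epithelia, had 8.03, 7.94 and 8.19 in KO skin and 5.17, 5.95 and 4.64 in wild-type skin, and lay between 8.43 and 9.10 in all 6 pituitary arrays.

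Immediate early genes are switched on within minutes of a stimulus to the cell. Of 19 immediate early genes 4 were higher in the difference and 0 lower, 21.1% called against 10.0% of all genes, with a median of 0.94. Their mean log2 intensity was 10.2 to 10.4 in KO pituitaries and 9.35 to 10.1 in wild-type pituitaries, and 8.48 to 9.62 in KO skin and 9.17 to 9.84 in wild-type skin. Zfp36, which speeds the decay of inflammatory messages, had 9.95, 10.13 and 10.39 in KO pituitaries and 8.72, 8.42 and 8.49 in wild-type pituitaries, and 6.15, 8.19 and 7.48 in KO skin and 9.24, 8.97 and 9.48 in wild-type skin. The groups did not overlap in either tissue, and the difference was 3.57 ± 0.53 (SE, adjusted p = 0.000461), although the pituitary effect alone did not pass (1.61, 0.142). Arc and Btg2 differed by 2.62 and 1.86, with no call for Arc when intensities were floored at 16 (adjusted p = 0.0796), a setting that left 2 of the 19.

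Of 17 glucocorticoid-responsive genes 0 passed limma's test, against 10.0% of all genes, and 2 had an unadjusted p under 0.05, median 0.85. Their mean was 12.1 to 12.2 in KO and 11.6 to 11.9 in wild-type pituitary, and 10.9 to 11.5 in KO skin against 10.8, 11.3 and 13.1 in wild-type skin samples 1, 2 and 3. With sample 3 as the lone skin wild type, 11 of the 17 were higher, and 4 were without sample 1 and 2 without sample 2, whereas without sample 3 the median was 0.08. Among 4 metallothioneins, the metal-binding proteins, Mt4 of stratified epithelium (2.36, adjusted p = 0.00333) and Mt3 (2.05, 0.00617) were higher, the second with no call under the floor (0.0662). Of 16 cholesterol synthesis genes 0 passed in the difference, with 6 at an unadjusted p under 0.05. In skin 8 of them fell and 1 rose, 56.25% called against 23.9% of all genes. Without wild-type skin sample 1, 3 of the 16 passed, and 1 did without wild-type sample 3 or 10 or KO pituitary sample 18.

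The remaining lists held few calls. Among chemokine ligands, 2 of 26 were higher and 4 lower, with Ccl27a, which draws T cells to skin, at 1.84 and Ccl8, which draws monocytes, at -2.74. Of 22 interferon-stimulated genes 0 were higher and 2 lower, of which Bst2, or tetherin, differed by -1.80, and 1 passed without KO sample 7, 8 or 18. Of 15 endothelial genes 2 were higher and 1 lower, the junction gene Cldn5 at -2.21 among them. By limma no member passed for the markers of T cells and mast cells (13 genes, of which 3 had an unadjusted p under 0.05), neutrophils (12, 1), red blood cells (2, 2), myelin and Schwann cells (9, 2), for voltage-gated ion channels (15, 2) or for cytosolic ribosomal proteins (32, 5). Without wild-type skin sample 1, 3 neutrophil genes and 1 gene each of T and mast cells, of myelin and of ion channels passed, and 1 gene of T and mast cells did without wild-type skin sample 2 or KO pituitary sample 18. The other lists, from Wnt ligands to respiratory chain subunits, had 1 or 2 members past the threshold, between 5.56% and 11.1% called. The plot of list medians shows these counts, and without wild-type skin sample 1 the circadian clock list had 5 calls.

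**Figure D4:**
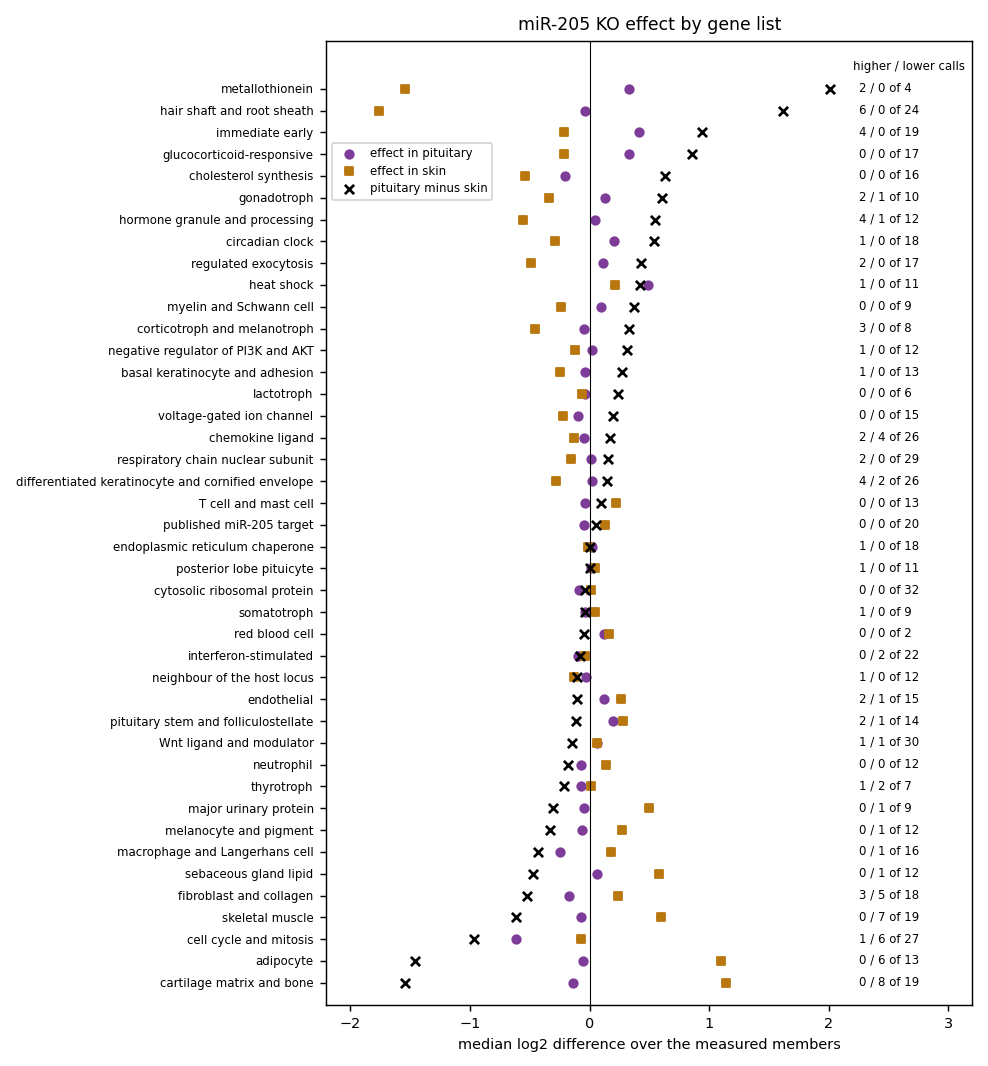
Median log2 effect of the miR-205 knockout over the measured members of 42 gene lists in pituitary (circles) and in skin (squares), with the median of the difference, pituitary minus skin (crosses), and, at the right, how many members were higher or lower past the threshold. Pituitary medians run from -0.61 for cell cycle genes to 0.49 for heat shock genes, while skin medians run from -1.76 for hair genes to 1.14 for cartilage and bone.

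Published targets of miR-205 came next. Of 20 measured, 0 passed limma's test of the difference, against 10.0% of all genes, and 5 had an unadjusted p under 0.05. In the fit of the 12 arrays 1 was lower, E2f1, which also passed after median centring (adjusted p = 0.0424), and with the floor 1 was higher. Their median difference was 0.06, near the 0.08 of all genes, and their median effect was -0.05 in pituitary and 0.13 in skin. The differences ranged from -1.32 for the cell cycle factor E2f1 (adjusted p = 0.0678) to 0.84 for the receptor gene Erbb3 (0.105). Zeb1, a repressor of epithelial genes and a well-known target, had 12.20, 12.19 and 12.36 in KO pituitaries and 12.17, 12.22 and 12.30 in wild-type pituitaries, and 12.25, 12.23 and 12.25 in KO skin and 12.65, 12.01 and 12.22 in wild-type skin. KO and wild-type arrays overlapped in both tissues, and the difference was 0.07 ± 0.29 (SE). In skin 3 of the 20 passed, 15.0% against 23.9% of all genes. E2f1 rose (1.27), and Phlpp2, a phosphatase that acts on AKT (-0.86), and Phlda3, a competitor of AKT for membrane lipids (-1.23), fell.

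Negative regulators of PI3K and AKT gave 1 call of 12 measured genes, 8.33% and near the 10.0% of all genes. That gene was Tsc1, a subunit of the complex that restrains growth signalling, with a difference of 1.39 ± 0.35 (SE, adjusted p = 0.0171) that lost its call without KO pituitary sample 17 (0.0519). Of 12 measured neighbours of the host locus on chromosome 1, 1 passed, the same 8.33%. Cr1l, a complement regulator, differed by 1.06 ± 0.27 (adjusted p = 0.017), with a skin effect of -0.86 and a pituitary effect of 0.20.

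The lncKO mice give the same comparison for the line labelled by the host transcript. Whether either allele also alters the other product of the locus is not given in the sources used here. Both knockouts were set against the same wild-type arrays, so their values are given side by side without a measure of likeness. In lncKO, 1736 genes (9.30%) differed between pituitary and skin. Bglap differed by -4.03 in miR-205 KO and -3.44 in lncKO, Chrna4 by 3.77 and 4.23, Krtap7-1 by 5.57 and 5.32, and Adtrp by -2.38 and -3.11 in the same order. For Cxcl9 the values were -3.64 in miR-205 KO and -1.41 in lncKO, for Igf1 -1.88 and -0.97, for Hmcn1 2.10 and 0.84, and for Rec8 -2.35 and -0.36. In pituitary itself Rec8 had 6.75, 6.92 and 6.48 in lncKO, above all 3 miR-205 KO arrays.

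Whether the knockouts differed from each other was tested directly, a test in which the wild-type arrays cancel. The tissue difference of miR-205 KO differed from that of lncKO in 2 genes (0.0107%), with 1259 genes at an unadjusted p under 0.05. Gpr52, an orphan receptor of the brain, had 8.57, 9.01 and 8.31 in miR-205 KO pituitaries and 6.71, 6.98 and 6.46 in lncKO pituitaries, and 5.70, 5.67 and 5.52 in miR-205 KO skin and 7.09, 5.67 and 6.52 in lncKO skin. Tnnt2, cardiac troponin T, had 3.00, 3.58 and 3.00 in miR-205 KO pituitaries and 3.91, 3.46 and 3.70 in lncKO pituitaries, and 9.06, 9.41 and 9.92 in miR-205 KO skin and 8.11, 7.75 and 7.99 in lncKO skin. The tested values were 2.71 for Gpr52 and -2.005 for Tnnt2, with an adjusted p of 0.0413 for both, and both genes lie on chromosome 1. The count was 0 in the fit of the 12 knockout arrays alone and after quantile normalization, and 19 with the floor. It was also 0 without lncKO sample 6, 13 or 14 or miR-205 KO sample 8, 9 or 18, 1 without lncKO sample 5 or miR-205 KO sample 16, and 4 without lncKO sample 4. Rec8 (-1.98, adjusted p = 0.0638), Cxcl9 (-2.23, 0.109) and Igf1 (-0.90, 0.344) did not pass.

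**Figure D5:**
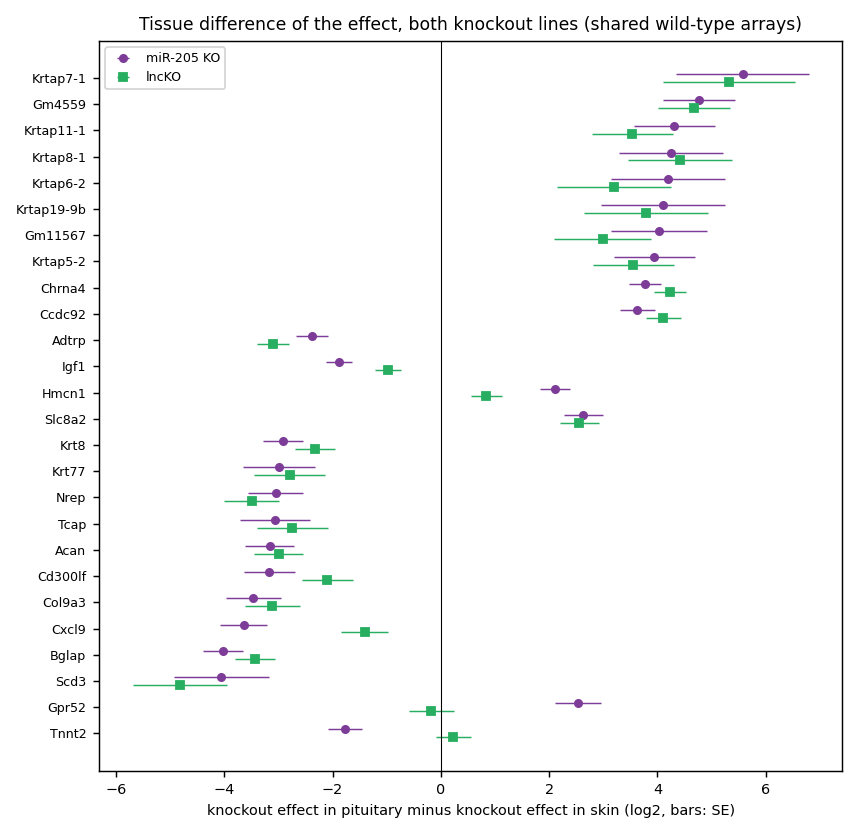
Knockout effect in pituitary minus knockout effect in skin on the log2 scale for 26 named genes, for miR-205 KO (circles) and lncKO (squares), with standard errors; both lines share the wild-type arrays. The circles and squares lie apart for Gpr52 and Tnnt2, the 2 genes past the threshold in the direct test, and also for Cxcl9, Igf1 and Hmcn1, which did not pass it.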

How the data were processed

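The authors deposited 1 table of linear intensities, whole numbers with 1 value per probe set and array, for 18 Clariom S arrays. How they corrected background, summarised probes and normalized is not given in the sources used here, so low values may depend on those steps. Per the labels, labelled cDNA was made from amplified cRNA. Probe sets were named from the platform annotation, which gave 1 gene symbol to 19572 of 22206 probe sets and none to 2634. Intensities were analysed as log2 with no floor or filter. One limma 3.58.1 fit (R 4.3.3, lmFit and eBayes) had a term for each of the 6 groups and no covariate. P-values are 2-sided and were adjusted by the Benjamini-Hochberg method over the 19572 named probe sets. The threshold was 0.05, and results are given for 18671 autosomal genes, each by its probe set of highest mean.

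The labels do not say that samples came from separate animals, so p-values measure the spread between samples, which may be technical. No slide or scan information was used here, and the number of arrays limits the precision. Members, gene lists and the naming rule were chosen with earlier results of these data known. The rule took, among genes past the threshold with arrays separated in at least 1 tissue and a mean log2 intensity of at least 6 in a group, the 10 highest and 10 lowest differences. It added genes past the threshold in both tissues or in pituitary alone, up to 3 called members of each list, the main hormone and keratin genes, published targets of miR-205 and the genes that differed from lncKO. The other pituitary calls were named after their values were seen. On simulated data with 19572 probe sets, the test of the difference recovered 89 of 100 changes of 2 on the log2 scale and 9 of 100 changes of 1, and called 6 of 19372 unchanged probe sets. The changes were added to KO pituitary arrays alone, in probe sets with a mean log2 intensity above 6. The noise was independent and normal, with the same spread in both tissues. Recovery of changes in skin or at lower intensity was not tested. Tables and figures were made with pandas 2.3.3, numpy 2.4.6 and matplotlib 3.10.9. The alternatives were other scalings, a floor, filters, other variance estimates, other sets of arrays or probe sets, and leaving out each array. Some items are not reported here.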

Additional observations from a re-analysis of the deposited data

Results flagged for a closer look

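The miR-205 knockout effect differed between pituitary and skin, by a test of the difference itself, in 1876 of 18671 autosomal genes. The 4 genes that changed in both tissues in opposite directions came to notice by the same test. Their differences, pituitary minus skin on the log2 scale, were -2.38 for Adtrp, -1.88 for Igf1, 2.10 for Hmcn1 and 2.63 for Slc8a2. Between the knockouts, the tissue difference of miR-205 KO differed from that of lncKO in 2 genes, Gpr52 at 2.71 and Tnnt2 at -2.005.

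Probe sets outside the autosomal genes also passed the test of the difference. Of 800 named X-linked probe sets 66 passed, 8.25%, and of 2634 probe sets without a gene symbol 267 passed, 10.1%. Both shares were near the 10.0% of autosomal genes.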

How the results depend on the processing

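No paired analysis was possible because the sample numbers run through the whole series and none recurs in another group. The test of the difference gave 1876 genes, and 1262 to 1936 when single arrays were left out. With a filter chosen after seeing the data, a mean log2 intensity of at least 6 in at least 1 group of each tissue, it gave 1180, and the same filter gave 10 genes in pituitary and 2722 in skin. The pituitary count of 21 was 41 with the variance estimated by tissue and 4 to 13 without 1 pituitary array. The skin count of 4468 was 2417 with sample 3 as the lone skin wild type, also chosen after seeing the data, and 3119 to 3971 when single skin arrays were left out. The count of 2 against lncKO was 0 in the fit of 12 arrays (1430 at an unadjusted p under 0.05 by limma), 0 after quantile normalization (1285), 1 with a variance trend and robust estimation, 7 with a mean of at least 6 in at least 1 group, 19 with a floor at an intensity of 16, and 0 to 4 when single arrays were left out. Of 67 named genes called in the difference 51 kept their call under every alternative, as did 4 of the 21 in pituitary, Cxcl9, Igf1, Rec8 and Fzd6, and no called gene changed sign. Some uncalled differences did change sign. When single arrays were left out, Ctse lay between -0.8836 and 0.0027, Tnr between -0.2983 and 0.0629, Ghrhr between -0.1226 and 0.4095, Krt5 between -0.3321 and 0.0567, Krt14 between -0.0177 and 0.3508 and Zeb1 between -0.1079 and 0.2142. With sample 3 as the lone skin wild type Tchh was -0.156 and Ghrhr -0.3929, after quantile normalization Krt5 was 0.0712, and after median centring Zeb1 was -0.055. The causes were not tested, except that the filters test fewer genes and the lone-array settings use fewer samples. Values near background limit what can be said of pituitary genes in skin and of skin genes in pituitary.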
